A study of Rattus norvegicus with 26 samples.

Results

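The 10 genes described here mark the early stages of the oligodendrocyte lineage: Pdgfra and Cspg4 for precursor cells, the transcription factors Olig1, Olig2, Sox10 and Nkx2-2 for the lineage, and Gpr17, Bcas1, Enpp6 and Tmem163 for committed and newly formed oligodendrocytes. They were taken by gene symbol from 17910 gene IDs in the deposited values, all 10 were found, and all 10 were among the 15595 genes tested. The choice of genes was made with earlier results of these data known. RNA came from the dentate gyrus of 1 hemisphere of male F344 rats aged 6 months, with 1 library per rat. The Veh group (10 rats) received vehicle and belonged to a continuing project on aging of the brain, the Dox group (8 rats) received weekly injections of doxorubicin, a DNA-damaging chemotherapy drug, and the Dox + ABT group (8 rats) received the same injections together with ABT-263, a BCL-2 family inhibitor used to remove senescent cells, by oral gavage. The comparisons address whether doxorubicin altered expression in this region and whether adding the senolytic altered that. Each library is a bulk sample, in which fewer cells of a type and less RNA per cell cannot be told apart.

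Oligodendrocyte precursors persist in the adult hippocampus, where they divide slowly and supply new myelinating cells. A precursor carries the PDGF-A receptor and the NG2 proteoglycan on its surface, and it loses both as it commits to differentiation. The committed cell passes through a short stage with high Gpr17, then a premyelinating stage with Bcas1, Enpp6 and Tmem163, before the myelin genes reach their full level. Olig1, Olig2 and Sox10 are transcribed from precursor to mature cell, so their RNA does not single out a stage.

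Of the 10 genes, 2 were lower in Dox than in Veh at p under 0.01, the threshold used throughout, and both belong to the newly formed stage: Tmem163 and Enpp6. Across all tested genes 2.87% passed that threshold in this comparison, and 1.85% passed it with a lower level in Dox. The calls over all genes, 159 higher and 289 lower, became 83 and 183 without Dox 1, 90 and 181 without Dox 2, 269 and 438 without Veh 11, and 350 and 269 in the libraries with a lower ribosomal share alone (the first kind). The same 2 genes were lower in Dox than in Dox + ABT, where 4.03% of all genes passed and 1.71% passed with a lower level in Dox. In Dox + ABT relative to Veh 1 member passed, the precursor gene Cspg4, which was lower, against 7.84% of all genes passing and 3.95% passing with a lower level in Dox + ABT. None of the 5 limma calls reached an adjusted p of 0.05 by the Benjamini-Hochberg method over all tested genes, and 3, 3 and 1 members had an unadjusted p under 0.05 in these comparisons. The first pair of comparisons shares the Dox rats and the pair against Veh shares the Veh rats, so they are not independent of each other.

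Depth estimated from the steps between low values was 10125622 to 24286310 reads per library. The libraries were divided into 2 kinds along the first principal component of the spread within groups (28.4% of that variance, computed without lineage genes). Of the first kind were 7 Dox + ABT, 5 Dox and 4 Veh rats, of the second 6 Veh rats, 3 Dox rats and a single (1) Dox + ABT rat, and ribosomal protein genes took 1.04% ± 0.152 (SD, n = 16) and 1.71% ± 0.236 (SD, n = 10) of the signal. The cut was the widest gap with at least 3 rats on each side (10.2 score units), and 2 wider gaps (12.3 and 12.95) set apart only Veh 11 or Veh 10 and Veh 11. The ribosomal share did not overlap between the kinds, at 0.645% to 1.27% and 1.34% to 2.16%. The labels name no batch, so results are also given within each kind. Prox1, which defines dentate granule cells, was present in every library (1679.7 to 3587.3 normalized counts).

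**Figure D1:**
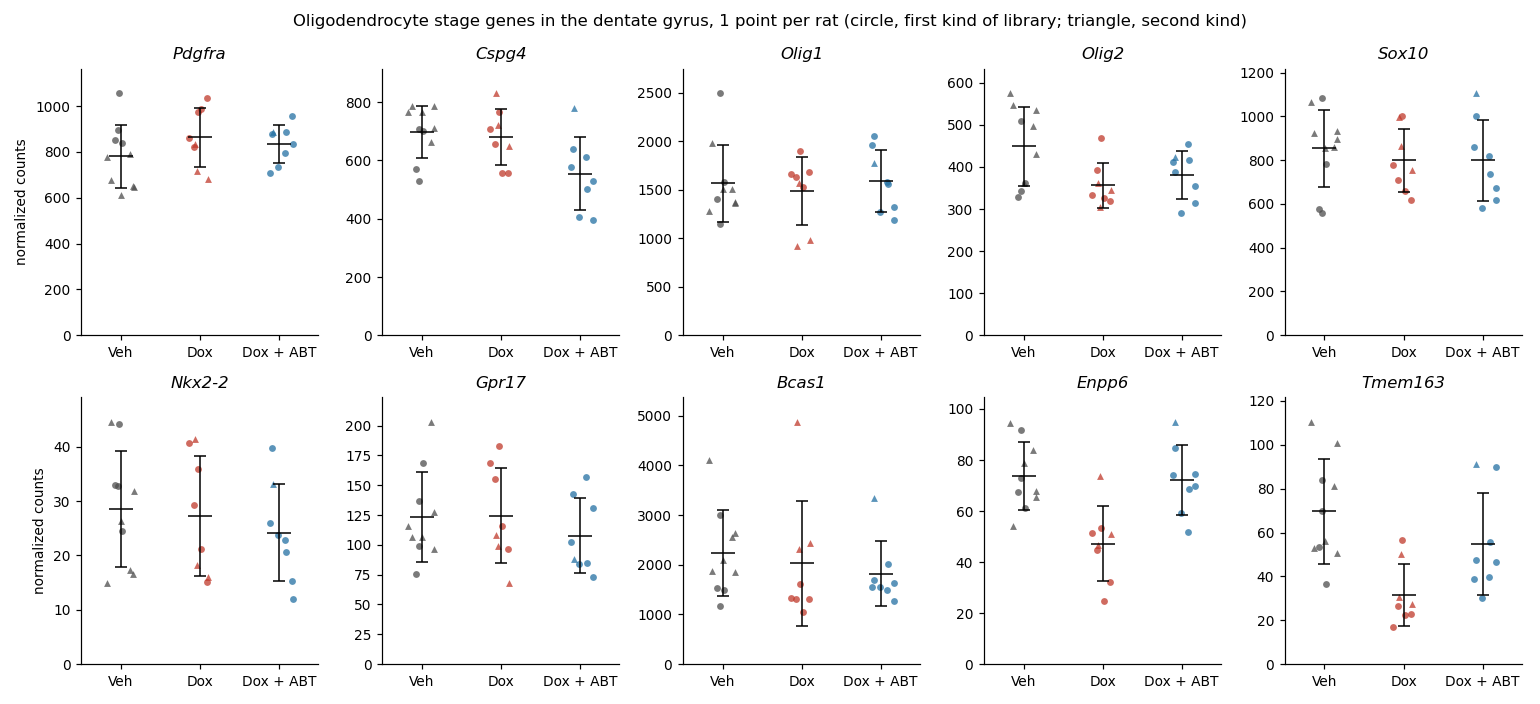
Normalized counts of the 10 genes in each rat by group, with 1 point per rat, bars at the mean ± SD, and circles and triangles for the first and second kind of library. Enpp6 and Tmem163 sat low in Dox, where 7 of 8 and 6 of 8 rats lay below every Veh rat.

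Pdgfra (ENSRNOG00000002244) encodes the receptor for PDGF-A, the mitogen of precursors. Its lowest, median and highest normalized counts were 610.8, 784 and 1058 for Veh, 679.9, 847 and 1034 for Dox, and 709.8, 857 and 955 for Dox + ABT. The upper ends of the groups overlapped, while 4 of 10 Veh rats, all with libraries of the second kind, lay below every Dox and every Dox + ABT rat. The log2 difference of Dox from Veh was 0.15 (SE 0.10, limma p = 0.145), with a 95% interval of -0.06 to 0.36, which leaves room for at most a small decrease. Relative to Veh, Dox + ABT differed by 0.11 (p = 0.276), and Dox differed from Dox + ABT by 0.04 (p = 0.715). The Dox difference reached the threshold in 1 alternative, with libraries weighted by their quality (0.29, p = 0.0043). After adjustment for kind of library it was 0.09 (p = 0.303). Within the first kind alone it was 0.04 (p = 0.728), and within the second 0.10 (p = 0.382). Pdgfra is also transcribed in meningeal fibroblasts, whose markers are given with those of the other cell types.

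Cspg4 (ENSRNOG00000017208) encodes NG2, the proteoglycan that names these cells, and pericytes carry it as well. Its counts ran from 529.9 to 788 in Veh (median 709.7), from 557 to 832 in Dox (median 682) and from 395 to 779 in Dox + ABT (median 553). Dox and Veh overlapped, whereas 4 of 8 Dox + ABT rats lay below every Veh rat and all 8 Dox rats lay above the Dox + ABT median. Cspg4 fell by 0.35 on the log2 scale in Dox + ABT relative to Veh (SE 0.11, p = 0.00438, adjusted p = 0.113), a level 0.782 times that of Veh. The call did not hold without Dox + ABT 5 (p = 0.015) or Dox + ABT 6 (p = 0.0156), in the first kind of library alone (-0.27, p = 0.0727) or after adjustment for kind of library (-0.22, p = 0.0503). Dox differed from Veh by -0.04 (p = 0.732) and from Dox + ABT by 0.31 (p = 0.0143), a value past the threshold without Dox 1 (p = 0.00787), Dox 2 (p = 0.0079), Dox + ABT 2 (p = 0.00934) or Dox + ABT 4 (p = 0.00207) and with libraries weighted by their quality (0.43, p = 0.000465). Without Dox + ABT 5 or Dox + ABT 6 that difference was 0.26 (p = 0.0414) and 0.25 (p = 0.0431), in the first kind of library alone 0.32 (p = 0.0243), and after adjustment for kind 0.24 (p = 0.028).

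Among the transcription factors of the lineage, Olig2 (ENSRNOG00000028658), which specifies precursors, had the lowest p. Its counts were 329.7 to 576 in Veh (median 464), 305 to 469 in Dox (median 339.9) and 290.3 to 454 in Dox + ABT (median 400.3). In Dox 7 of 8 rats lay below the Veh median, and all 8 Dox + ABT rats did. The log2 difference of Dox from Veh was -0.32 (SE 0.12, p = 0.0131, adjusted p = 0.370) and did not pass the threshold. In the first kind of library alone it was -0.061 (p = 0.699). It passed in the second kind alone (-0.53, p = 0.00381) and without Veh 1 (p = 0.00791), Veh 5 (p = 0.00473), Veh 10 (p = 0.00588), Veh 11 (p = 0.00771) or Dox 10 (p = 0.00412). The difference of Dox + ABT from Veh was -0.22 (p = 0.0767), and it passed in 1 alternative, with libraries weighted by their quality (-0.32, p = 0.00629).

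The other 3 factors overlapped between all groups. Olig1 (ENSRNOG00000028648), needed for maturation and repair, had medians of 1454 (Veh), 1599.7 (Dox) and 1571 (Dox + ABT) within ranges of 1146 to 2497, 918 to 1902 and 1187 to 2054. Its 2 lowest Dox rats lay below every Veh rat, both among libraries of the second kind. Sox10 (ENSRNOG00000011305), which drives myelin genes, had medians of 877, 766 and 778 within 558 to 1084, 619 to 1001 and 583 to 1107. Nkx2-2 (ENSRNOG00000012728), which is highest as precursors begin to differentiate, was the least abundant member in reads, at 13.96 to 53.9 estimated reads per library, with medians of 29.1, 25.2 and 23.3 normalized counts. Their log2 differences of Dox from Veh were -0.08 for Olig1 (p = 0.587), -0.09 for Sox10 (p = 0.543) and -0.08 for Nkx2-2 (p = 0.764). For Olig1 the difference was 0.079 in the first kind of library (p = 0.660) and -0.41 in the second (p = 0.0358), neither past the threshold. The 95% interval of Nkx2-2, -0.60 to 0.45, covers a moderate difference in either direction.

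Gpr17 (ENSRNOG00000025745), a receptor that peaks in committed precursors and restrains their maturation, differed little between Dox and Veh on average, with opposite signs in the 2 kinds of library. Its counts ran from 75.8 to 203 in Veh (median 111), from 68.4 to 183 in Dox (median 112) and from 73.1 to 157 in Dox + ABT (median 95.3). The groups overlapped, and the difference of Dox from Veh was -0.0029 on the log2 scale (SE 0.19, p = 0.988), with a 95% interval of -0.40 to 0.39. It was 0.29 in the first kind of library (p = 0.274) and -0.43 in the second (p = 0.0925), neither past the threshold. Relative to Dox + ABT, Dox differed by 0.19 (p = 0.360).

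Bcas1 (ENSRNOG00000012906), a protein of early myelinating cells that stays on in mature ones, had the widest spread of the members in Dox (coefficient of variation 61.9%). Its counts ran from 1174.5 to 4108 in Veh (median 1984), from 1048 to 4881 in Dox (median 1474) and from 1275 to 3348 in Dox + ABT (median 1602). The highest rat of each treated group, Dox 5 and Dox + ABT 4, stood well above the others of its group, and both are libraries of the second kind. The median in the second kind was 2327.5 in Veh and 2435 in Dox, and in the first kind 1519 and 1309. The log2 difference of Dox from Veh was -0.23 (SE 0.25, p = 0.366), -0.43 without Dox 5 (p = 0.0555), and 0.32 in the second kind of library alone (p = 0.261).

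Enpp6 (ENSRNOG00000009660) encodes a choline-specific phosphodiesterase that marks newly forming oligodendrocytes. Its counts were 54.0 at the lowest, 70.4 at the median and 94.5 at the highest in Veh, 24.6, 48.9 and 73.6 in Dox, and 51.7, 72.0 and 95.004 in Dox + ABT. All Dox rats but 1 lay below every Veh rat, and 6 of 8 lay below every Dox + ABT rat, whereas Veh and Dox + ABT covered the same range. The mean ± SD was 73.8 ± 13.2 over the 10 Veh rats, 47.2 ± 14.7 over the 8 Dox rats and 72.2 ± 13.6 over the 8 Dox + ABT rats. Enpp6 fell by 0.68 on the log2 scale in Dox relative to Veh (SE 0.16, p = 0.000287, adjusted p = 0.114), to 0.625 times the Veh level with a 95% interval of 0.496 to 0.789. It ranked 36 by p among 15595 genes. Relative to Dox + ABT the level in Dox was 0.640 times as high (log2 -0.64, SE 0.17, p = 0.000843, adjusted p = 0.153), and Dox + ABT differed from Veh by -0.03 (p = 0.843, 95% interval -0.37 to 0.30).

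Tmem163 (ENSRNOG00000003769) encodes a membrane zinc transporter that is high in newly formed oligodendrocytes and is also found in some neurons. Its counts were 36.7, 63.0 and 111 in Veh, 17.2, 26.8 and 56.6 in Dox, and 29.97, 47.1 and 91.3 in Dox + ABT, again as lowest, median and highest. In Dox 6 of 8 rats lay below every Veh rat and 5 of 8 below every Dox + ABT rat, and 2 Dox rats (50.05 and 56.6) lay within the range of both other groups. Tmem163 fell by 1.14 on the log2 scale in Dox relative to Veh (SE 0.24, p = 6.63e-05, adjusted p = 0.0690), to 0.453 times the Veh level with a 95% interval of 0.320 to 0.641. It ranked 15 by p among all tested genes. Relative to Dox + ABT the level was 0.582 times as high (log2 -0.78, SE 0.26, p = 0.00515, adjusted p = 0.207). That second call did not hold without Dox 1 (p = 0.0112), Dox 2 (p = 0.0115), Dox 13 (p = 0.0148), Dox + ABT 4 (p = 0.0155) or Dox + ABT 11 (p = 0.0155), nor in the first kind of library alone (-0.81, p = 0.0131). Dox + ABT differed from Veh by -0.36 (p = 0.151), with an interval of -0.86 to 0.14 that covers both no difference and a decrease of some size. That difference was -0.15 (p = 0.541) after adjustment for kind of library and -0.30 (p = 0.294) in the first kind alone.

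**Figure D2:**
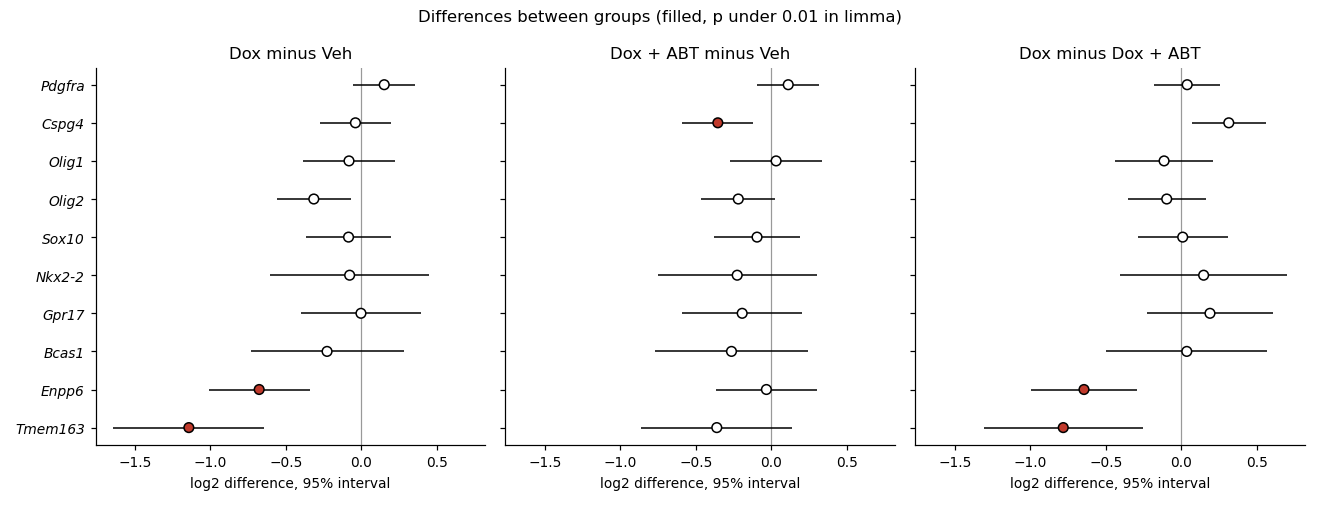
Log2 differences of the 10 genes in the 3 comparisons (points, limma estimates; lines, 95% intervals), filled where p was under 0.01. Enpp6 and Tmem163 lie apart on the low side in both comparisons with Dox first, and Cspg4 is the filled point for Dox + ABT minus Veh.

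Tmem163 passed the threshold in Dox relative to Veh within each kind of library, and Enpp6 within the first. In the first kind the median of Enpp6 was 70.2 for Veh, 44.6 for Dox and 69.7 for Dox + ABT, and every Dox rat (24.6 to 53.3) lay below every Veh rat (61.1 to 91.9). In the second kind it was 73.3 in Veh and 50.9 in Dox, with 3 Dox rats at 46.9 to 73.6 against 54.0 to 94.5, and the difference there was -0.37 (p = 0.116). Tmem163 had medians of 61.8 and 22.8 in the first kind and 68.7 and 30.7 in the second, again for Veh and Dox. These genes are the less abundant ones of their stage in reads, at 20.9 to 114 estimated reads per library for Enpp6 and 16.0 to 146 for Tmem163, so counting error is part of their spread. Enpp6 passed against Veh and against Dox + ABT without any 1 rat, with p at most 0.00103 and 0.00263.

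**Figure D3:**
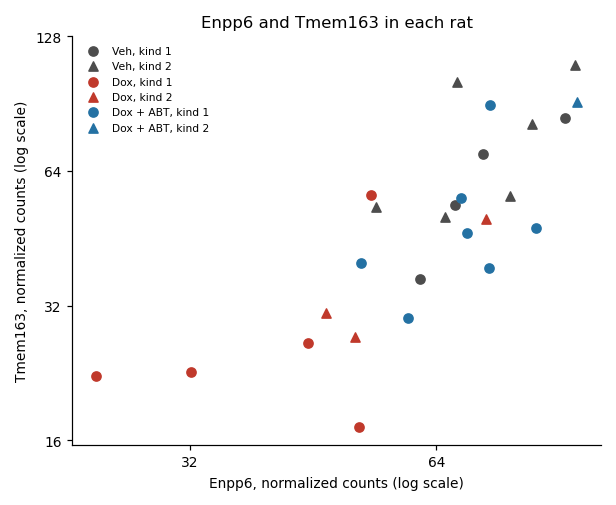
Tmem163 against Enpp6 in each rat, both in normalized counts on log axes, coloured by group with circles and triangles for the first and second kind of library. Dox rats fill the lower left, with Enpp6 from 24.6 and Tmem163 from 17.2, and 2 Dox rats lie among the other groups on Tmem163 at 50.05 and 56.6.

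The promoter windows of the 2 genes that fell are shown with that of Pdgfra, a precursor gene that did not pass in any comparison, so that their sequence can be read beside the values. Each window runs from 250 bases before to 50 bases after the RefSeq start on GRCr8, a later build than the rn6 assembly behind the values. Windows were matched by symbol for 7 of the 10 genes, and the 3 shown, all on the minus strand, lie at chr16:52026679-52026978 for Enpp6, chr13:41693889-41694188 for Tmem163 and chr14:33408467-33408766 for Pdgfra. Capitals mark matches to the SOX core letters ACAAAG or ACAATG or to the E-box letters CAGCTG that OLIG factors can bind, searched on both strands.
Enpp6: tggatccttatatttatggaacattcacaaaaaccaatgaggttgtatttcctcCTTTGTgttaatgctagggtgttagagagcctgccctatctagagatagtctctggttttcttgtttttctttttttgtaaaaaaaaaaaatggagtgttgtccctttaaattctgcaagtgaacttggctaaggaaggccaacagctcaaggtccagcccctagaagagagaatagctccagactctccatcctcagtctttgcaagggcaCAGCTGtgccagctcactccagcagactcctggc
Tmem163: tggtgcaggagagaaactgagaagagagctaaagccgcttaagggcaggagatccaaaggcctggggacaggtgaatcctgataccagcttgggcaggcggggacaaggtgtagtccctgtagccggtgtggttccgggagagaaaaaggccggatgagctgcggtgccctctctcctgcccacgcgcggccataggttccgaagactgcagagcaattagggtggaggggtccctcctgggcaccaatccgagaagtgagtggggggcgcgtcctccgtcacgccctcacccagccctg
Pdgfra: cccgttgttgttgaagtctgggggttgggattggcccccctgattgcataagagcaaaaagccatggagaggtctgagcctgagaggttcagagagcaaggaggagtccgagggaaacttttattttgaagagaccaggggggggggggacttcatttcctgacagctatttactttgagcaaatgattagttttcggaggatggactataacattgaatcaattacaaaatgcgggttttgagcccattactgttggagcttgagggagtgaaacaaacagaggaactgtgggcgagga
Enpp6 held CTTTGT, the reverse complement of ACAAAG, at position -196 and CAGCTG at position 17 from the start, while the other windows shown held none of these letters. Such matches are common: ACAAAG was in 18.8%, ACAATG in 13.2% and CAGCTG in 15.1% of 33469 promoter windows of the same length. The windows of Cspg4, Olig2 and Nkx2-2 held no match either, and that of Gpr17 was not analysed here.

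To set the stages against each other within a rat, the mean log2 level of the 4 newly formed genes minus that of Pdgfra and Cspg4 was taken as a stage index. It is a description and carries no test, since its members were chosen with earlier results of these data known. Its mean ± SD was -1.96 ± 0.270 over the 10 Veh rats, -2.53 ± 0.325 over the 8 Dox rats and -2.05 ± 0.125 over the 8 Dox + ABT rats. In Dox 7 of 8 rats lay below every Veh rat and 7 of 8 below every Dox + ABT rat, and the mean differed by -0.57 from Veh and by -0.48 from Dox + ABT. Between Dox and Veh the shift was carried by Enpp6 and Tmem163, whose part of the index differed by -0.97. The part of Gpr17 and Bcas1 differed by -0.17. Between Dox and Dox + ABT these parts differed by -0.89 and -0.06. Precursor genes entered that second shift as well, with Cspg4 higher in Dox by 0.31 and Pdgfra by 0.04. The lower Cspg4 of Dox + ABT raises its index, so an index near that of Veh does not mean equal levels of each gene. Within the first kind of library the means were -2.14, -2.69 and -2.08 in Veh, Dox and Dox + ABT, and within the second -1.84 and -2.26 in Veh and Dox, with 1 Dox + ABT rat at -1.88.

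**Figure D4:**
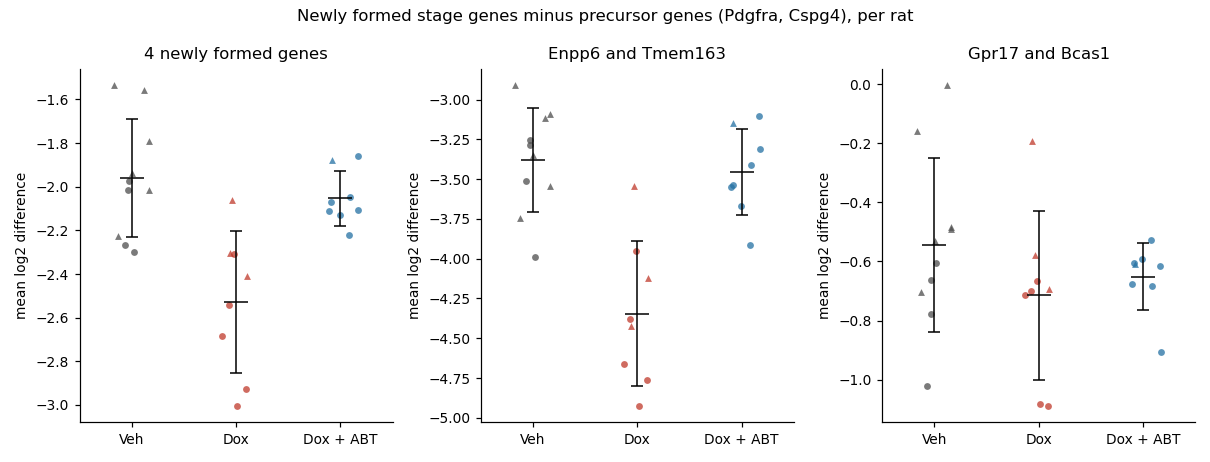
Mean log2 level of newly formed genes minus that of Pdgfra and Cspg4 in each rat, for all 4 genes, for Enpp6 and Tmem163, and for Gpr17 and Bcas1, with bars at the mean ± SD and circles and triangles for the first and second kind of library. Dox lies low in the first 2 panels (-2.53 and -4.34 on average) and overlaps the other groups in the third (-0.71).

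The way members varied from rat to rat around their group means followed the stages only in part. Over the 26 rats Cspg4 varied most closely with Sox10 (Pearson r = 0.87) and Olig2 with Sox10 (r = 0.73), and the 2 precursor genes did not vary together (r = -0.23 for Pdgfra and Cspg4). Within the newly formed stage Enpp6 varied with Tmem163 (r = 0.61) and Bcas1 (r = 0.56), and Bcas1 with Tmem163 (r = 0.54), whereas Enpp6 did not vary with Gpr17 (r = 0.01). Against the summed level of the mature myelin genes, Bcas1 (r = 0.81) and Sox10 (r = 0.78) had the highest correlations, Cspg4 (r = 0.62), Olig2 (r = 0.62), Tmem163 (r = 0.56) and Enpp6 (r = 0.52) came next, and Pdgfra (r = 0.11) and Gpr17 (r = -0.17) were near 0. These points share library, depth and kind of library and are given as a description. Among 12120 genes averaging 50 or more normalized counts, the 5 closest to Enpp6 in this sense were Aif1l (r = 0.82), Nckap1l (r = 0.82), Kcna6 (r = 0.82), Wls (r = 0.81) and Evi2a (r = 0.79), and the 5 closest to Pdgfra were Traf6 (r = 0.87), Atrn (r = 0.87), Etv3 (r = 0.85), Fryl (r = 0.84) and Acss1 (r = 0.84).

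Of 11 further precursor genes tested none passed in Dox relative to Veh, with a median log2 difference of -0.09 beside 0.00 over all tested genes. In Dox + ABT relative to Veh 2 of them were lower, the synapse-organizing C1ql1 (log2 -0.44, p = 0.00469) and the proteoglycan Bcan (-0.45, p = 0.00186), which astrocytes also make, and neither passed after adjustment for kind of library. The smallest p against Veh in Dox among them belonged to C1ql1 (-0.32, p = 0.0357), Susd5 (-0.52, p = 0.0471) and the matrilin Matn4 (-0.44, p = 0.0505). Of 12 further genes of the newly formed stage none passed in any comparison, with a median of 0.08 for Dox minus Veh. In that list 4 were lower and 8 higher, and the smallest p belonged to the deacetylase Sirt2 (-0.14, p = 0.0552), Kndc1 (0.22, p = 0.0588) and Cnksr3 (0.21, p = 0.219). These averaged 2738.4, 3437.6 and 172 normalized counts, against 65.1 for Enpp6 and 53.4 for Tmem163. The part of other cell types in this list was not tested. After adjustment for kind of library 2 of those 12 passed as higher in Dox than in Dox + ABT.

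Of 15 signals and receptors that act on the lineage, 1 was higher in Dox than in Veh and none was lower. That gene was Jag1, a Notch ligand that can hold precursors back from maturing, at 23.1 to 64.5 normalized counts in Veh (median 42.2), 50.05 to 80.4 in Dox (median 63.9) and 42.3 to 97.8 in Dox + ABT (median 71.2). It rose by 0.55 on the log2 scale in Dox (p = 0.00706, adjusted p = 0.309) and by 0.63 in Dox + ABT (p = 0.00238, adjusted p = 0.109), and neither call held after adjustment for kind of library. The growth factor receptors Fgfr3 (0.39, p = 0.0131) and Igf1r (0.30, p = 0.0231) had the next smallest p in Dox and did not pass. Bmp4, which turns precursors toward astrocytes, was lower in Dox + ABT than in Veh (-0.61, p = 0.00732), a call that also did not hold after adjustment for kind, and at -0.35 in Dox (p = 0.106). Of 14 other regulators 1 was lower in Dox than in Veh, the inhibitor of differentiation Id4 (-0.38, p = 0.00352, adjusted p = 0.261), which astrocytes and neural stem cells express too. The oligodendrocyte factor Zfp488 (-0.42, p = 0.0799) and the Notch target Hes5 (-0.44, p = 0.124) did not pass.

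**Figure D5:**
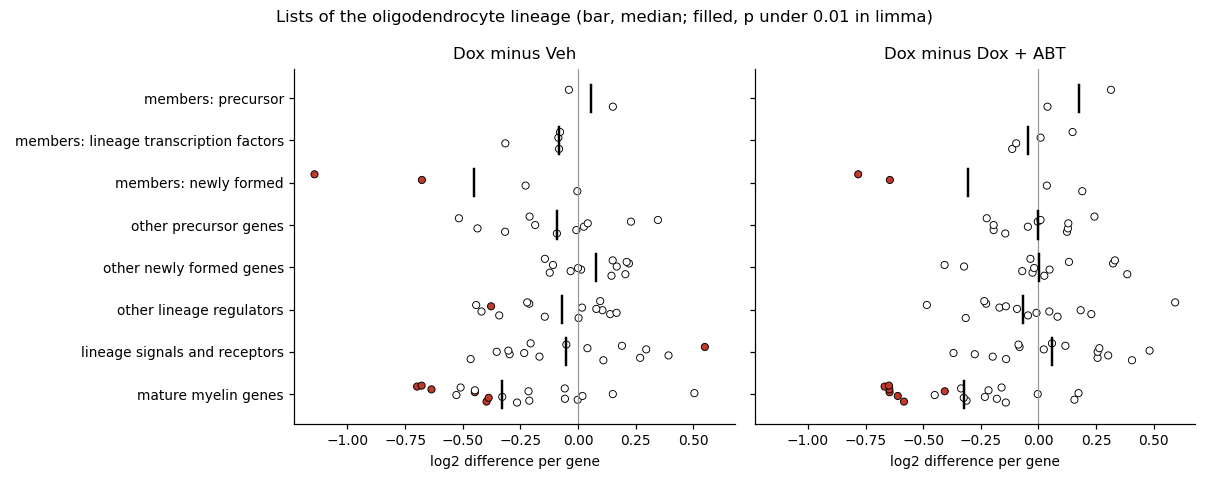
Log2 difference of each tested gene of the oligodendrocyte lists for Dox minus Veh and Dox minus Dox + ABT, with a bar at the list's median and filled points where p was under 0.01. The 4 newly formed members and the mature myelin genes have medians of -0.45 and -0.33 for Dox minus Veh, against 0.08 for the other newly formed genes.

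Some mature myelin genes were lower in the comparisons in which Enpp6 and Tmem163 were. Of 19 tested, 6 were lower and none higher in Dox than in Veh, among them the lipocalin Apod (-0.70, p = 0.000467) and the protease Klk6 (-0.68, p = 0.000837), and 7 were lower in Dox than in Dox + ABT. Over all tested genes 1.85% and 1.71% were lower in these comparisons. The list's median was -0.33 for Dox minus Veh and -0.32 for Dox minus Dox + ABT, and Opalin was higher in Dox + ABT than in Veh (0.63, p = 0.00224). Adjusted for kind of library, a fit added after the data had been seen, 5 and 8 of the 19 were lower in these 2 comparisons and Opalin no longer passed. With that adjustment 254 and 318 of all 15595 genes were lower. The list's summed level overlapped between groups, from 52132 to 140790 normalized counts in Veh (median 84135), 55322 to 82515 in Dox (median 67572) and 60105 to 125250 in Dox + ABT (median 74457). How much of the lower Enpp6 and Tmem163 goes with the level of mature oligodendrocytes was not tested.

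Some markers of other cell types were lower in Dox as well, where 1.85% of all tested genes were lower relative to Veh. The choroid plexus markers Kl, Folr1 and Kcnj13 averaged under 5 normalized counts and were not tested, and Pecam1, Col1a2 and Tdo2 were not analysed here. Of 6 astrocyte markers 3 were lower in Dox than in Veh, led by Gfap (-0.75, p = 4.07e-05), and their summed level was 33584 to 43142 normalized counts in Dox, 39437 to 60762 in Veh and 38074 to 55080 in Dox + ABT. Of 6 microglia markers 3 were lower, with sums of 2881 to 4577 in Dox, 3185.5 to 5582 in Veh and 2884 to 4896.5 in Dox + ABT. Meningeal fibroblast markers, which bear on Pdgfra, were lower for 2 of 5, Col3a1 (-1.40, p = 4.21e-05) and Lum (-0.90, p = 0.00151), with sums of 114 to 227, 135 to 300.2 and 154 to 444 in Dox, Veh and Dox + ABT. Pericyte markers, which bear on Cspg4, were lower for 1 of 6, Vtn (-0.70, p = 0.000487), with sums of 822 to 1012, 697 to 1512 and 784 to 1108, and none passed in Dox + ABT relative to Veh. Of 4 endothelial markers Vwf was higher (0.89, p = 0.00185) and Slco1a4 lower (-0.96, p = 0.0011), with sums of 1832 to 4321, 1289.9 to 4845.5 and 1129 to 3000.3, and no granule cell or choroid plexus marker passed in Dox relative to Veh (4 and 2 tested). Relative to Dox + ABT, 2 of the meningeal fibroblast, 1 of the astrocyte and 1 of the endothelial markers were lower in Dox, and 1 endothelial marker was higher. After adjustment for kind of library, 3 meningeal fibroblast, 2 astrocyte, 1 microglia, 1 pericyte and 1 endothelial markers were lower there, and 1 endothelial marker was higher. In Dox + ABT relative to Veh, where Cspg4 was lower, 1 astrocyte marker (Aldh1l1, -0.47, p = 0.00175), 1 microglia marker (Csf1r, -0.48, p = 0.00199) and 1 granule cell marker (C1ql2, -0.46, p = 0.000697) were lower, and after adjustment for kind of library no astrocyte or microglia marker passed there. The part of these cell types in the values of Enpp6, Tmem163, Pdgfra and Cspg4 was not tested.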

How the data were processed

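Poly(A) RNA with spike-in controls was sequenced on Ion Proton, and the authors aligned reads to rn6 with STAR 2.5.3a in Partek Flow and scaled transcript counts by the Median Ratio method (they tested with DESeq2). The deposited values are therefore a normalized signal per transcript row; 24012 rows were summed here by gene ID (17910 IDs). Low values of genes with 1 row stepped by whole reads within 0.02 for 74.1% to 80.5% of those values by library, so no count model was used. Groups and numbers came from the sample labels.

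limma 3.58.1 in R 4.3.3 (variance trend, two-sided) was fitted to log2(value + 1) for 15595 genes averaging 5 or more, all 26 rats in 1 fit of 3 groups without covariate. Fold changes are on that scale and understate changes of low genes. A call is p under 0.01, as in the study, with Benjamini-Hochberg values beside it. The fit was tested on simulated data. Kinds of library were split at the widest gap in the principal component that left at least 3 rats on each side. Promoter windows are from RefSeq (GRCr8). Figures were drawn with matplotlib 3.10.9.

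Alternatives were pseudocounts of 0.5 and 5, no filter or a mean of 20, rescaling by trimmed means (TMM) or quantiles, no variance trend, robust eBayes, arrayWeights, the 2 compared groups alone, a covariate for kind of library or each kind alone, a replicate block, the highest row of each gene, and leaving out each rat. All 10 members were named, with the 3 genes of smallest p in Dox against Veh and any at p under 0.01 from each other lineage list. The 5 genes most like Enpp6 and Pdgfra were ranked by Pearson r of deviations from group means. Of the mature myelin and cell type lists only examples are named, and some single genes are not reported here. The members and lists were chosen with earlier results of these data known. Rats are named by group and label number. Intervals are 95% intervals of the limma estimate.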

Additional observations from a re-analysis of the deposited data

Results flagged for a closer look

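Of 33 sets of values examined (each member and the stage index in each group), 2 held a rat whose gap to its neighbour was a large share of the group's range, where chance gives about 1 in 20. Bcas1 was 4880.6 normalized counts in Dox 5, and 1047.7 to 2435 in the other Dox rats. Bcas1 was 3347.7 normalized counts in Dox + ABT 4, and 1274.9 to 2015.8 in the other Dox + ABT rats. Both libraries are of the second kind, with the higher share of ribosomal protein genes, and the part of this in the values was not tested.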

How the results depend on the processing

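Tmem163 passed in Dox relative to Veh under all 15 alternatives (log2 -1.21 to -1.03) and without any 1 rat (-1.27 to -1.04). Enpp6 passed in that comparison under all but the second kind of library alone (-0.37, p = 0.116). The count of members called was 2 to 3 without 1 rat for Dox and Veh, 0 to 1 for Dox + ABT and Veh and 1 to 3 for Dox and Dox + ABT. For Dox + ABT and Veh it was 2 with arrayWeights, 0 when adjusted for kind of library and 0 in the first kind alone, and for Dox and Dox + ABT it was 1 in the first kind alone and 3 with arrayWeights, as it was for Dox and Veh. Over all genes arrayWeights raised the calls (higher and lower) from 159 and 289 to 1442 and 1708 for Dox and Veh, from 606 and 616 to 2425 and 2872 for Dox + ABT and Veh, and from 362 and 267 to 938 and 674 for Dox and Dox + ABT. Adjustment for kind of library lowered the calls for Dox + ABT and Veh to 100 and 114. The first kind alone gave 101 and 76 in that comparison, and 703 and 583 for Dox and Dox + ABT. For Dox and Veh the second kind alone gave 261 and 295. Without 1 rat the calls over all genes moved by over 1.5 times for Dox + ABT and Veh without Veh 1 (398 and 362), Veh 2 (427 and 361), Veh 9 (334 and 362), Veh 10 (886 and 969), Veh 11 (951 and 1179), Dox + ABT 3 (358 and 384), Dox + ABT 5 (340 and 355) or Dox + ABT 6 (347 and 349), and for Dox and Dox + ABT without Dox + ABT 5 (241 and 178). The causes were not tested. Nkx2-2, Tmem163 and Enpp6 rest on the fewest reads and are the members whose values depth limits most.

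The stage index without 1 rat ran from -0.64 to -0.50 for Dox minus Veh, from -0.13 to -0.04 for Dox + ABT minus Veh and from -0.54 to -0.41 for Dox minus Dox + ABT, and Enpp6 minus Pdgfra alone gave -0.83 for Dox minus Veh.

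Replicate numbers are shared by 5, 8 and 3 pairs of rats in the 3 comparisons (Dox and Veh, Dox + ABT and Veh, Dox and Dox + ABT) but number different rats, and the deviations of same-numbered rats correlated at -0.17 to 0.14, -0.14 to 0.30 and 0.02 to 0.17. With the number as a replicate block, on those pairs only, 2, 1 and 0 members passed, and calls over all genes were 183 higher and 128 lower for Dox and Veh, 702 and 1021 for Dox + ABT and Veh and 181 and 133 for Dox and Dox + ABT. Enpp6 for Dox minus Dox + ABT was then -1.08 (p = 0.0152) and Tmem163 -0.59 (p = 0.140), with fewer rats in the fit. Of members that had not passed, Cspg4 for Dox minus Dox + ABT was 0.26 (p = 0.325) and Olig2 for Dox minus Veh -0.13 (p = 0.486).

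Members that did not pass changed sign in some settings. For Dox minus Veh, Cspg4 was 0.026 adjusted for kind, 0.049 in the first kind and 0.021 with the block, and Olig1 was 0.089 with arrayWeights, 0.079 in the first kind and 0.11 with the block. Sox10 was 0.040 in the first kind and 0.078 with the block, and Nkx2-2 was 0.17 with arrayWeights. Gpr17 was 0.0047 with TMM, 0.29 with arrayWeights, 0.29 in the first kind and 0.13 with the block, and Bcas1 was 0.32 in the second kind. Without 1 rat the range crossed 0 for Cspg4, Olig1, Nkx2-2 and Gpr17 (-0.083 to 1.9e-05, -0.14 to 0.011, -0.18 to 0.023 and -0.091 to 0.11). For Dox + ABT minus Veh, Pdgfra was -0.024 adjusted for kind and -0.14 in the first kind, and Olig1 was -0.018 with arrayWeights, -0.072 adjusted for kind, -0.051 in the first kind and -0.022 with the block. Sox10 was 0.067 adjusted for kind and 0.042 in the first kind, and Bcas1 was 0.15 adjusted for kind. Enpp6 was 0.092 adjusted for kind. Without 1 rat the range crossed 0 for Olig1 and Enpp6 (-0.025 to 0.11 and -0.092 to 0.032). For Dox minus Dox + ABT, Olig1 was 0.11 with arrayWeights and 0.13 in the first kind, and Olig2 was 0.029 with arrayWeights. Sox10 was -0.017 with quantiles, -0.076 adjusted for kind, -0.0029 in the first kind and -0.10 with the block, and Nkx2-2 was -0.28 with the block. Gpr17 was -0.0040 with the block, and Bcas1 was -0.023 with quantiles, -0.10 with arrayWeights, -0.18 adjusted for kind and -0.28 in the first kind. Without 1 rat the range crossed 0 for Sox10 and Bcas1 (-0.051 to 0.081 and -0.17 to 0.17).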
